A study of Mus musculus with 8 samples.

Results

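Melatonin and its absence were compared at 1 time, 3 h of LPS, in RAW264.7, a mouse macrophage line that grows as a monolayer and answers bacterial products. The comparison set the array titled RAW264.7 Melatonin LPS3h against the array titled RAW264.7 LPS3h, 2 of the 8 arrays of the series. Its members are the 15505 genes that had at least 1 probe well above background, by the scanner software's flag, on at least 1 of these 2 arrays, out of 56605 probes that are not controls. Cells of the melatonin group received 1 mM melatonin for 1 h and then LPS of Escherichia coli O55:B5 at 100 ng/ml for 3 h, and cells of the other group received the same LPS for 3 h and no melatonin. The other 6 arrays hold the pair that had no LPS and the pairs of 1 h and 5 h. Each condition has 1 sample on 1 array, so the 3 h differences are values without a test, and nothing in the labels gives a second culture. Hours of LPS follow the titles. The labels' treatment field names an LPS time 1 step later than the title for 3 of the 4 melatonin samples, 5 h for the melatonin sample used here, and no treatment for the other one. All arrays lay on 1 slide, those with melatonin in row 2 and those without in row 1, so melatonin and slide row cannot be told apart.

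LPS is detected by Toll-like receptor 4, whose adaptors switch on NF-kB and the MAP kinases for early cytokine genes, and IRF3 for the gene of interferon beta. Interferon beta is secreted and acts back on the cell through its receptor and the factors STAT2 and IRF9, and the antiviral genes with an interferon-stimulated response element (ISRE) follow as a later wave. Melatonin, the pineal hormone, acts on membrane receptors and is known from many macrophage studies as a compound that lowers inflammatory mediators at high doses.

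Levels are given as scaled signal, the processed spot signal with the 75th percentile of each array set to 100, and differences as log2, melatonin minus no melatonin. The 75th percentile was 688.6 on the array without melatonin and 793.9 on the array with it, and the flag was set for 50.17% and 49.78% of probes. The lowest signals called well above background were 4.52 and 4.84 on the scaled axis, and values under these have no order. The median error that the scanner software gives for a 3 h difference was 0.20 log2, and 300 probes spotted 10 times varied with a median SD of 0.036 to 0.045 log2 on an array. Where a gene had at least 2 probes on both arrays (5768 genes), the SD of its 3 h difference between probes had a median of 0.13. These errors belong to the measurement on 1 array and hold no spread between cultures. Of the macrophage markers 9 of 10 were well above background on each array, with a summed scaled signal of 106000 without melatonin and 83400 with it. The brightest of them, Lyz2, was read at 50800 and 39500 (-0.36). A control list of 12 reference genes had a median difference of -0.30, so the sum fell by little more than such genes. Of the epithelial markers 0 of 5 were above background on either array, of the fibroblast markers 1 of 6 (Col1a2), and of the granulocyte markers 2 of 4 without melatonin and 1 with it. The lymphocyte markers, 3 of 6 and 2 of 6 of them above background, summed to 198 and 153, and the endothelial markers, 2 of 4 and 1 of 4, to 23.7 and 14.4. Osteoclast genes were 4 of 6 on both arrays, with sums of 1010 and 1450. In bulk RNA, fewer cells that carry a transcript and less of it per cell cannot be told apart.

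With melatonin, 1199 genes (7.73% of 15505) stood at least 2-fold higher and 1030 (6.64%) at least 2-fold lower at 3 h. Among genes measured on both arrays, those farthest below included the cytokine genes Il6, Csf2 and Lta, the endothelin gene Edn1 and the chemokine gene Ccl17, and those farthest above included Srxn1, Tob1 and Phlda3. The same genes gave 2-fold counts of 328 higher and 312 lower without LPS, 479 and 481 at 1 h, and 948 and 668 at 5 h. They were kept by the flags of the 3 h arrays, which favours differences at 3 h, so these counts do not rank the pairs. Of the 15505 genes, 13933 were well above background on both 3 h arrays, and 681 of these were higher and 551 lower by the 2-fold rule. With each gene seen on 1 array only set at its bound, against the lowest signal called above background on the other array, the counts became 987 higher and 760 lower. The 2-fold line passed between Nbeal1 (1.001) and Ppp2r5b (0.9999) on the higher side, and between Itpka (-1.005) and Fbxw17 (-0.9996) on the lower side.

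**Figure D1:**
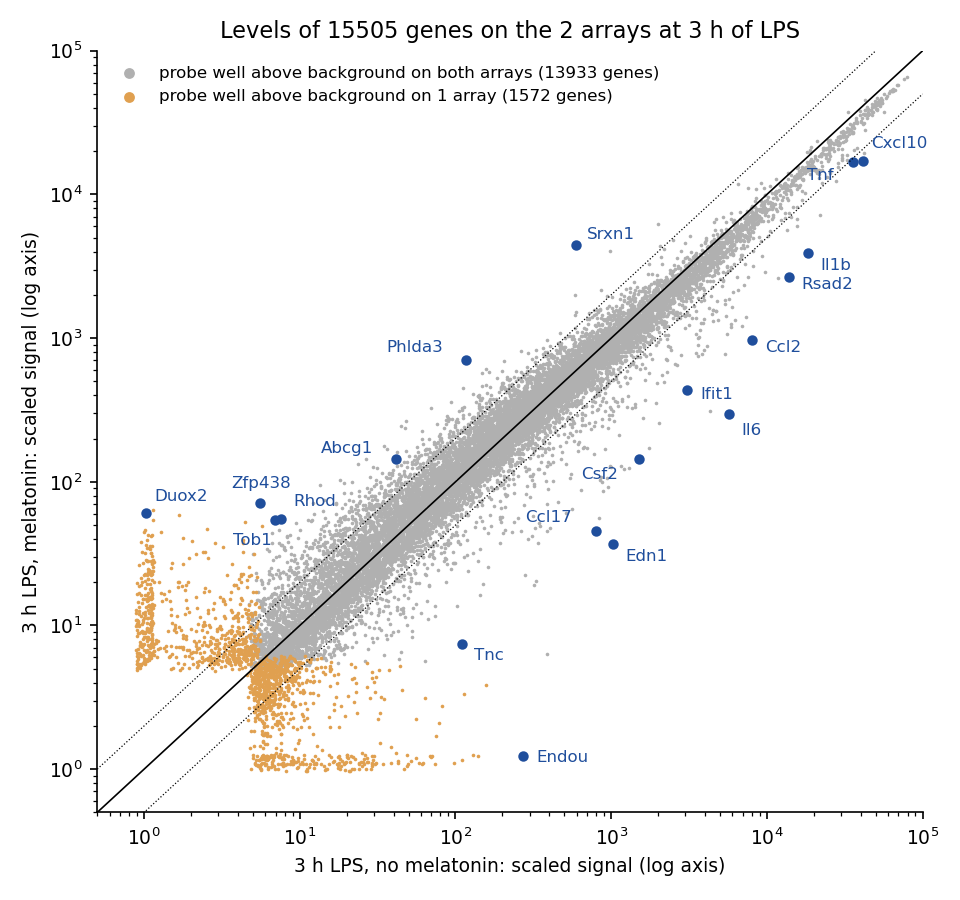
Scaled signal of 15505 genes at 3 h of LPS without melatonin (horizontal, log axis) and with it (vertical, log axis), each point 1 gene, with the line of equal level and dotted lines at 2-fold; blue points are named. Il6, Edn1 and Ccl17 lie far below the line and Srxn1 and Phlda3 above it, and the orange points along the lower and left edges are genes whose probe was well above background on 1 of the 2 arrays.

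The largest folds were mostly of genes near background. Of 199 genes at least 8-fold higher, 1 was well above background on both arrays (Zfp438), and of 163 at least 8-fold lower 28 were. Genes seen on 1 of the 2 arrays made up 193 and 134 of these, and 132 and 80 were above background on none of the other 6 arrays. Endou was read at 273 without melatonin and 1.24 with it, at least 56.4-fold lower, and at 0.872 to 1.57 on the other 6 arrays. Duox2, an oxidase that makes hydrogen peroxide, was read at 1.03 and 60.2, at least 13.3-fold higher, and at 0.824 to 1.41 elsewhere. Klf5 (at least 13-fold higher), 4921523P09Rik (14.2), Rtl3 (11.9) and Cpn1 (10.4) had the same form, and so did 4632428C04Rik (at least 28.9-fold lower), Gm3120 (26.8) and Olfr411 (23.3). Gk2 (at least 32.5-fold lower) was also read at 11.5 without melatonin and 5.48 with it at 5 h. Zfp438, at 5.57 and 71.7 (3.69), lay between 4.08 and 6.36 on the other 6 arrays. Klk12 was read at 5.03 and 31.3 (2.64), and at 3.25 and 1.55, near background, at 1 h. The lowest gene seen on both arrays, 4931431B13Rik, was read at 385 and 6.32 (-5.93) by one probe, and its other probe gave -0.52. Genes above background on a single array of the 8 numbered 233 on the 3 h array without melatonin and 264 on that with it, within the range of 182 to 344 over the arrays.

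At 3 h with melatonin, genes raised by LPS were mostly lower and genes lowered by LPS mostly higher. The LPS classes were made from the arrays without melatonin at 0, 1 and 5 h, so the 2 arrays compared did not define them. Those 2 arrays did choose the genes, by their flags, and the probe of each gene. Early raised genes (560, at least 2-fold up at 1 h) had a median 3 h difference of -0.45, with 169 (30.2%) at least 2-fold lower and 35 (6.25%) higher. Late raised genes (1136, at least 2-fold up at 5 h and not at 1 h) had a median of -0.63, with 370 (32.6%) lower and 35 (3.08%) higher. Genes lowered by LPS (1979, at least 2-fold down at 5 h) lay the other way, with a median of 0.58, 546 (27.6%) higher and 60 (3.03%) lower. The other 11830 genes had a median of -0.07, with 583 (4.93%) higher and 431 (3.64%) lower. With no filter on background the medians were -0.12 for early raised, -0.38 for late raised and 0.46 for lowered genes. Among genes above background on both 3 h arrays they were -0.40, -0.55 and 0.54. So 45.5% of the higher genes were of the lowered class, which holds 12.8% of all genes, and 16.4% and 35.9% of the lower genes were early and late raised, classes that hold 3.61% and 7.33%.

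**Figure D2:**
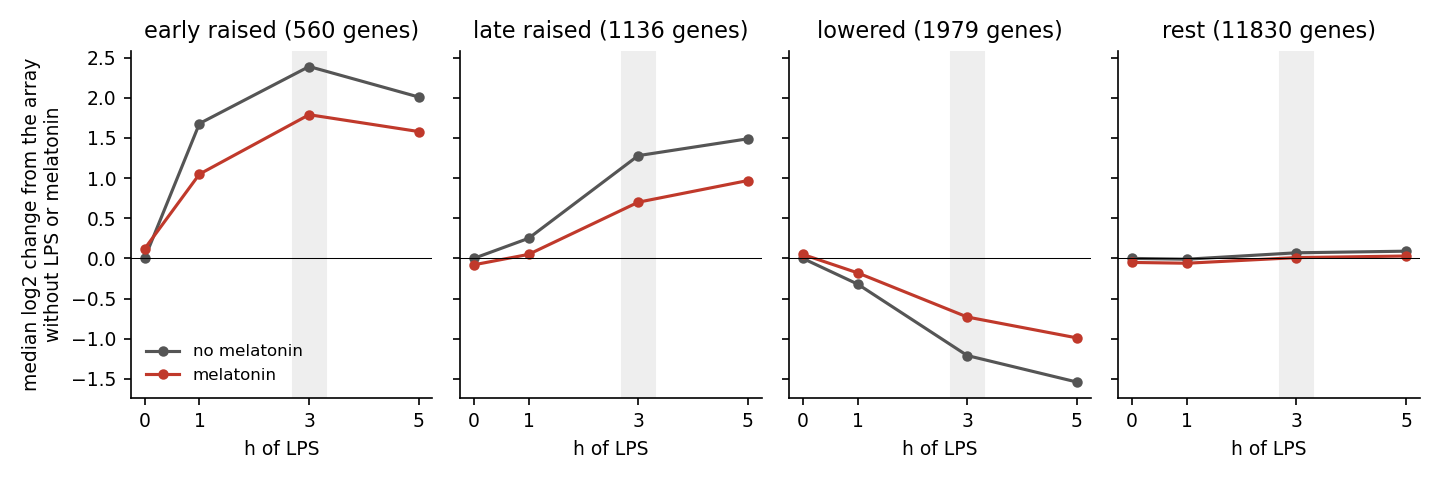
Median log2 change of each LPS class from the array without LPS or melatonin (vertical) by hours of LPS (horizontal), without melatonin in grey and with it in red, 1 array a point; the shaded band marks 3 h, whose arrays did not define the classes. At 3 h the late raised class stood at 1.28 without melatonin and 0.70 with it, and the lowered class at -1.21 and -0.73.

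In terms of change from the array without LPS or melatonin, the early raised class reached a median of 2.39 at 3 h without melatonin and 1.79 with it, the late raised class 1.28 and 0.70, and the lowered class -1.21 and -0.73. The melatonin array at 3 h was compared with all 4 arrays without melatonin over the 3675 genes of these 3 classes. Its mean absolute log2 difference was 0.78 from the 1 h array, 0.90 from the 3 h array, 1.09 from the 5 h array and 1.11 from the array without LPS. Over the same class genes, the melatonin array at 5 h lay nearest the 3 h array without melatonin (0.76), and at 0.82 from that of 5 h. By the count of all measured genes at least 2-fold apart, it lay nearest that of 5 h. That count was 1616 (10.4%) from the 5 h array and 1823 (11.8%) from the 3 h array. So the nearest array to melatonin at 5 h depended on the genes and measure used. By the same count, the melatonin array at 3 h still lay nearest the 1 h array (1746, beside 2229 from the 3 h array). The arrays with melatonin at 1 h and without LPS lay nearest the array of their own title (0.57 and 0.44). With the array titled melatonin at 1 h, which the treatment field calls 3 h, in place of the titled one, the late raised class stood at -1.28 and the lowered class at 1.06. By the treatment field, the melatonin array without LPS in its title also lies 1 step later. That array lay at 0.44 from the array without LPS or melatonin and at 0.82 from the 1 h array without melatonin. Which label holds was not tested.

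Interferon response genes, which make antiviral proteins after type I interferon, were the list with the lowest median. Of 43 measured members 38 (88.4%, beside 6.64% of all genes) were at least 2-fold lower with melatonin and 0 were higher. All 43 lay below 0, beside 54.4% of all genes, and the median was -1.92 beside -0.06. Their scaled signals at 3 h ran from 29.8 to 42600 without melatonin (median 1440) and from 3.12 to 28100 with it (median 416). Of these genes 35 were of the late raised class, and 33 of the 35 were at least 2-fold lower. The list showed this at 3 h and in part at 5 h. At 1 h its median difference was -0.05 with 0 members 2-fold lower and 3 higher, without LPS it was 0.09 with 1 lower (Gbp2, 2.39 and 1.04, near background), and at 5 h it was -0.78 with 18 lower. Of the 43 genes 42 had a lower difference at 3 h than in the 1 h pair and 41 a lower one than in the 5 h pair.

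Ifit1, whose protein holds back viral RNA from translation, was read at 33.2, 61.3, 3090 and 1530 at 0, 1, 3 and 5 h without melatonin. With melatonin it was read at 52.2, 54.8, 434 and 768. The arms were close at 1 h, and the 3 h values differed by -2.83, 7.12-fold. Rsad2, the antiviral enzyme viperin, ran 29.9, 134, 13900 and 6850 without melatonin. With melatonin it ran 48.0, 93.6, 2670 and 6570, so the arms met again at 5 h (-0.06) after a gap of -2.39 at 3 h, and its probes gave -2.45 and -2.39. Mx1 and Mx2, dynamin-like antiviral GTPases, stood at -2.47 and -1.71 at 3 h and at 0.32 and 0.35 at 5 h. Gbp3, a guanylate-binding protein of cell-autonomous defence, was read at 1150 without melatonin and 128 with it at 3 h (-3.16), and was still apart at 5 h (-2.13). Ifit2 (1300 and 125, -3.38), Ifit3 (1760 and 171, -3.37) and Oasl2 (999 and 126, -2.98) were among the lowest measured on both arrays, and Ifit3 and its near-identical copy Ifit3b (-3.10) may share signal. Iigp1, an interferon-inducible GTPase, was at least 13.2-fold lower (63.9 and 3.12, the latter not well above background).

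**Figure D3:**
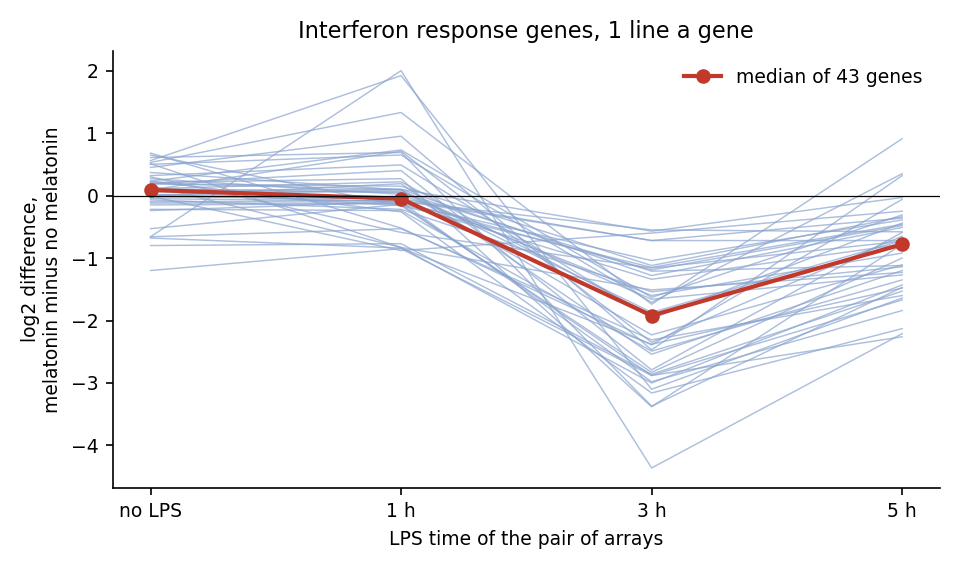
Log2 difference, melatonin minus no melatonin (vertical), of each of 43 interferon response genes in the 4 pairs of arrays (horizontal), 1 thin line a gene, with the median in red. The median was 0.09 without LPS, -0.05 at 1 h, -1.92 at 3 h and -0.78 at 5 h.

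Ifnb1, which encodes interferon beta itself, was apart from 1 h on. Without melatonin it was read at 0.858, 105, 886 and 542, and with melatonin at 0.982, 5.47, 86.7 and 86.8. Both values without LPS were near background. With melatonin the 1 h value was little above the lowest signals called well above background at 3 h (4.52 and 4.84). The difference was -4.26 at 1 h, -3.35 at 3 h and -2.64 at 5 h. Irf1, an interferon-inducible activator, had another order, with 293, 125, 972 and 197 without melatonin and 423, 315, 292 and 369 with it. Its difference was 1.33 at 1 h, -1.74 at 3 h (-1.89 by its other probe) and 0.91 at 5 h. Of the factors that carry the signal, Stat2 stood at -1.63, close to Irf1 and beside a list median of -1.92. Irf9 (-0.57) and Irf7 (21600 and 13100, -0.72) stood nearer to 0. Bst2, which tethers budding virus, was the least different member (4960 and 3380, -0.55).

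The ISRE, which the factors of this pathway bind, was searched for in promoters. RefSeq promoters (GRCm38.p6, 250 bases before to 50 after the start) were found for 11465 of the 15505 genes, 1 for each. The letters GAAANNGAA, read on both strands as ISRE, were in 21 of 32 interferon response promoters (65.6%), 7.51% of all measured genes and 8.57% of all 27025 genes with a promoter. They were in 15.1% of promoters of the 708 lower genes and 5.60% of the 893 higher ones. Among late raised genes, 24.1% of the 261 that were 2-fold lower held them, beside 9.20% of the 576 that were not. Late raised genes with the letters had a median 3 h difference of -1.12 (116 genes), and those without -0.54 (721). AP-1 letters (TGANTCA) were in 11.0% of the lower promoters, 6.83% of the higher and 5.67% of all. NF-kB letters (GGGANTTTC) were in 1.98% of the lower, 0.448% of the higher and 1.02% of all. GAS letters (TTCNNNGAA) were in 10.3% of the lower, 6.49% of the higher and 7.39% of all, and ATF4 letters (TGATGNAA) in 4.52%, 2.69% and 2.65%. NRF2 letters (TGACNNNGC) were in 14.4%, 13% and 14.2%, CRE letters (TGACGTCA) in 1.41%, 2.8% and 3.18%, and E-box letters (CACGTG) in 6.07%, 7.5% and 9.69%. The letters CCAAT were in 35.3%, 43.2% and 39.1%, and those of E2F (TTTGGCG) in 1.27%, 1.79% and 2.45%. Each motif was searched alone, so matches of different motifs may overlap, and a match is a description of letters.

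The 250 bases before the start of 4 interferon response genes described above are shown as examples that hold the ISRE letters, which are in capitals. Ifit1 lies at chr19:34640639-34640888 (plus strand), Ifit3 at chr19:34583279-34583528 (plus), Gbp3 at chr3:142559794-142560043 (plus) and Rsad2 at chr12:26456453-26456702 (minus). Ifit1 holds 3 matches, of which 2 overlap, Ifit3 holds 3 that lie apart, Gbp3 holds 2 that overlap and Rsad2 holds 1.
Ifit1: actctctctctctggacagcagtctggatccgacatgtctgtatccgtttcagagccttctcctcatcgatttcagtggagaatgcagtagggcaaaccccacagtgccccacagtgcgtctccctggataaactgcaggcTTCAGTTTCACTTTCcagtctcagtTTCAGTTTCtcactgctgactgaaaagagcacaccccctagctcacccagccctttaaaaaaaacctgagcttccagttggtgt
Ifit3: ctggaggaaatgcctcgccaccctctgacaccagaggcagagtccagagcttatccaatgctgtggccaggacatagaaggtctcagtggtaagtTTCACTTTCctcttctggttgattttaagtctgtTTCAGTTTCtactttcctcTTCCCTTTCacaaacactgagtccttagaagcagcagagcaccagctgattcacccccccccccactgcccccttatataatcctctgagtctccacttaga
Gbp3: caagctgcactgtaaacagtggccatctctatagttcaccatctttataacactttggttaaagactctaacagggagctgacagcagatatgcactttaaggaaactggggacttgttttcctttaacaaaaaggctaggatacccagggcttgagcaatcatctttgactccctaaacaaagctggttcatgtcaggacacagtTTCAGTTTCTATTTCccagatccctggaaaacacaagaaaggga
Rsad2: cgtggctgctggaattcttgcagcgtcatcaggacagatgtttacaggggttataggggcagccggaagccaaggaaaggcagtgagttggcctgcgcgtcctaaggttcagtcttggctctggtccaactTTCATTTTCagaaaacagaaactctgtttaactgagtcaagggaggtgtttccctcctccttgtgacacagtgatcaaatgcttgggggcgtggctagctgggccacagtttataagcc

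Cytokine genes were lower with melatonin as a list, 15 of 21 measured by at least 2-fold (71.4%, beside 6.64% of all genes). All 21 lay below 0, with a median of -1.71. The acute-phase cytokine gene Il6 was read at 0.809, 19.0, 5690 and 13700 at 0, 1, 3 and 5 h without melatonin. With melatonin it was read at 1.07, 1.67, 298 and 1480. At 3 h it was 19.1-fold lower (-4.25, and -4.32 by its other probe), and the arms were apart at 5 h (-3.21) too. At 1 h the value with melatonin was near background, so that difference has only a bound. Both arms read higher at 5 h than at 1 h. The growth factor genes of myeloid cells, Csf2 (1510 and 145, -3.39) and Csf3 (2020 and 258, -2.97), were also far apart. Il1a (1200 and 123, -3.28), an alarm cytokine of the interleukin-1 family, was farther apart than Il1b (18300 and 3900, -2.23), and Il1rn, the antagonist of both, was 958 and 91.5 (-3.39). Lta, a relative of Tnf, was read at 830 and 55.8 (-3.89).

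Tnf, the first cytokine macrophages release, differed by little over 2-fold at 3 h, at 35700 without melatonin and 16900 with it (-1.08, and -1.12 by its other probe). Its difference was -0.19 without LPS, -0.73 at 1 h and -0.72 at 5 h. Il27 (-2.27) and Ebi3 (-1.38), which form 1 cytokine, and Osm (-2.03) lay between. The members nearest to 0 were Il33 and Tnfsf9 at -0.36 each. Il12b was read at 6.21 and 4.23, near background, and Il10 was not above background on either array.

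**Figure D4:**
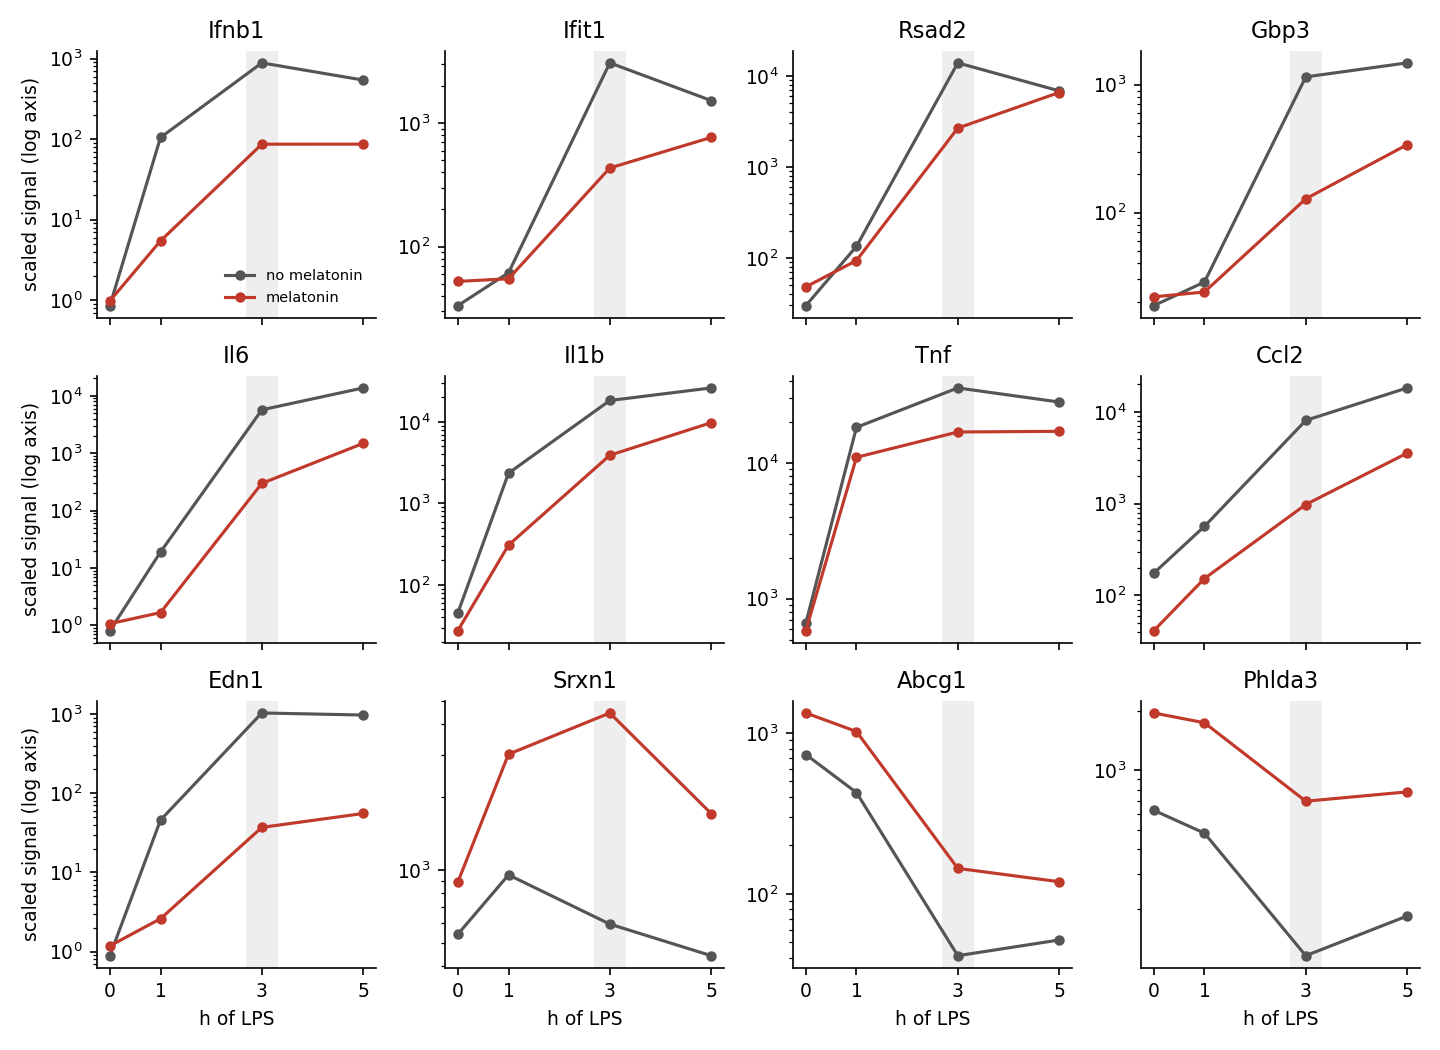
Scaled signal (vertical, log axis) of 12 genes by hours of LPS (horizontal), without melatonin in grey and with it in red, 1 array a point, with 3 h shaded. Il6 at 3 h stood at 5690 and 298, Ifit1 at 3090 and 434, and Srxn1, above in the melatonin arm, at 596 and 4460.

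Chemokine genes followed, with 10 of 14 at least 2-fold lower (71.4%, beside 6.64% of all genes), all 14 below 0 and a median of -1.43. Ccl2, the monocyte attractant, was read at 175, 566, 8060 and 18200 without melatonin and 41.4, 153, 978 and 3550 with it. It was lower in every pair, at -2.08, -1.89, -3.04 and -2.36 at 0, 1, 3 and 5 h. Its neighbours in function Ccl7 (143 and 16.4, -3.12) and Ccl12 (70.7 and 1.24, at least 14.6-fold) were lower at 3 h as well. Ccl17, which attracts T cells, was 799 and 45.8 (-4.12), and Cxcl2, which attracts neutrophils, was 11800 and 2630 (-2.17). Ccl3 (41800 and 31600, -0.40), Ccl4 (56500 and 37500, -0.59), Ccl5 (29500 and 22700, -0.38) and Cxcl11 (49300 and 41100, -0.26) were all under 2-fold. Cxcl11 was already read at 40000 without LPS or melatonin, so its probe showed little change with LPS. No spot was marked as saturated on either array. Cxcl10, an interferon-inducible attractant of T cells, was 41500 and 17100 (-1.28), beside 8460 and 1510 at 1 h (-2.49).

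Promoters of Il6 (chr5:30012864-30013113, plus strand) and Cxcl2 (chr5:90903649-90903898, plus strand) are shown in the same window as cytokine and chemokine genes that carry the NF-kB letters, in capitals.
Il6: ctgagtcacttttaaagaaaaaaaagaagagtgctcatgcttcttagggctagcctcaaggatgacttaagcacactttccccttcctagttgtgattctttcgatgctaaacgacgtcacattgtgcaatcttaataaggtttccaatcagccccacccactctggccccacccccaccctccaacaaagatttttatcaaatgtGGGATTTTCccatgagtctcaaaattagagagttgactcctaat
Cxcl2: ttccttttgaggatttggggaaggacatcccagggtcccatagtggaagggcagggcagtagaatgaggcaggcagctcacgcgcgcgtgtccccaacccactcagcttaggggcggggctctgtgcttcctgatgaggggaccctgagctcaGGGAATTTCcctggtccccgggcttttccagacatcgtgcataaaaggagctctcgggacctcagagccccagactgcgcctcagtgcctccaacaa

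Edn1, which encodes the vasoconstrictor peptide endothelin-1, was next to the lowest of all genes seen on both arrays. It was read at 0.887, 45.8, 1030 and 970 without melatonin and 1.18, 2.60, 37.0 and 55.4 with it. The 3 h difference of -4.80 was 27.8-fold, beside -4.13 at 5 h, and at 1 h its value with melatonin was near background. Its probe lies at chromosome 13, 42403101 to 42403160 on mouse build mm9. Of 10 measured genes of endothelin and vascular function 5 were at least 2-fold lower at 3 h (50%, beside 6.64% of all genes). Among them were Plau, the urokinase protease (46.2 and 12.6, -1.87) and F3, the tissue factor of clotting (68.0 and 18.9, -1.85). Nos3, the endothelial nitric oxide synthase, was at 25.4 and 26.4 (0.05).

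**Figure D5:**
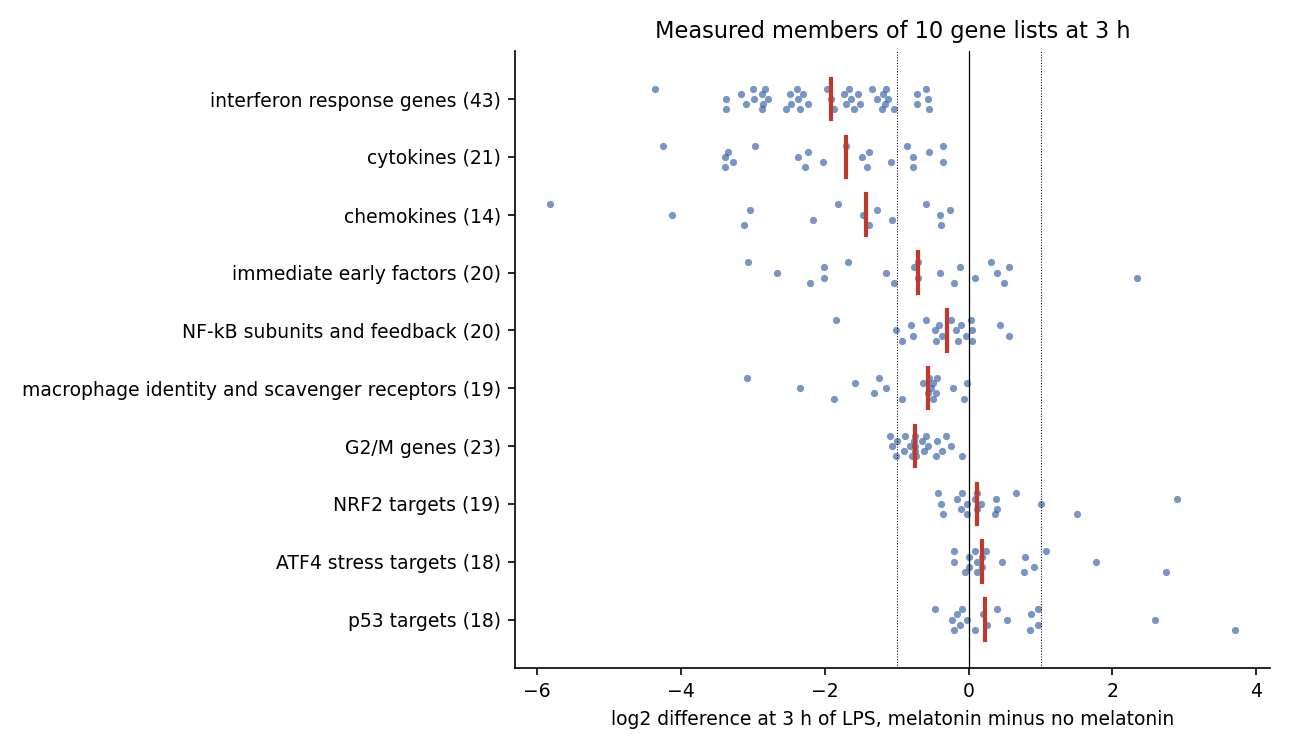
Log2 difference at 3 h, melatonin minus no melatonin (horizontal), of each measured member of 10 gene lists (rows, with the number measured), with the list's median as a red bar and dotted lines at 2-fold. Interferon response genes, cytokines and chemokines lie wholly below 0, with medians of -1.92, -1.71 and -1.43, and NRF2, ATF4 and p53 targets scatter about 0.

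Upstream of these products, transcription factor genes differed less evenly. Of 20 immediate early factors 8 (40%) were at least 2-fold lower and 1 (5%) higher at 3 h, beside 6.64% and 7.73% of all genes. Their median was -0.71. Myc, a growth-promoting factor, was read at 84.8 and 5.43, the latter close to background, at 1 h and 403 and 48.0 at 3 h (-3.07). The orphan receptor gene Nr4a1 was close at 1 h (2820 and 3580) and apart at 3 h (457 and 72.3, -2.66). Egr1, a zinc finger factor, was 4840 and 6860 at 1 h and 1180 and 368 at 3 h (-1.68), and Fos was 437 and 1700 at 1 h and 53.9 and 32.8 at 3 h (-0.71). Atf3, which restrains Toll-like receptor genes, was 3610 and 899 (-2.01). Klf4 went the other way, 8.22 and 41.6 (2.34).

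Genes of NF-kB and its feedback were nearer to equal. At least 2-fold lower were 2 of 20 (10%, beside 6.64% of all genes), and 0 were higher. Their median was -0.30, and -0.02 at its highest under other processing. Tnfaip3, the A20 deubiquitinase that ends NF-kB signalling, was 3620 and 1000 (-1.85). Nfkbiz, a nuclear cofactor for Il6, was 2940 and 1460 (-1.01, and -0.74 by its other probe). Nfkbia, the inhibitor that NF-kB induces at once, was 30800 and 23300 (-0.41), Rela 2380 and 2420 (0.03), and Socs3, a brake on cytokine receptors, 8330 and 7180 (-0.21). Of 24 genes of Toll-like receptor signalling 2 were 2-fold lower (8.33%, beside 6.64% of all genes), Tlr7 (547 and 217, -1.34) and Irak3 (234 and 105, -1.15). Tlr4, the LPS receptor, was 1150 and 750 (-0.62, and 0.03 by its other probe).

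Of 15 genes for nitric oxide, prostaglandins and itaconate 5 were at least 2-fold lower (33.3%, beside 6.64% of all genes), with a median of -0.39. Nos2, the inducible nitric oxide synthase, was 3400 and 1680 (-1.02), its arginine transporter Slc7a2 was 73.9 and 13.7 (-2.43), and Ptgs2, the inducible cyclooxygenase, was 8150 and 3160 (-1.36). Acod1, which makes itaconate, was close to equal at 54500 and 43600 (-0.32). Among acute-phase genes, Saa3 was 4300 and 312 (-3.78) and Lcn2, which binds bacterial iron carriers, was 916 and 169 (-2.44). Ch25h, which makes an antiviral oxysterol, was above, at 6.36 and 22.7 (1.84).

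Surface receptor genes of macrophages were on the lower side, 7 of 19 by at least 2-fold (36.8%, beside 6.64% of all genes). All 19 lay below 0 (median -0.57), as did 54.4% of all genes and every gene of the ribosomal protein and respiratory chain control lists. Axl, a receptor for dying cells, was 514 and 60.9 (-3.08), the inhibitory Fc receptor gene Fcgr2b 540 and 106 (-2.35), and the lipid scavenger gene Cd36 100 and 27.4 (-1.87). Csf1r, the growth factor receptor of the lineage, was 15800 and 15500 (-0.03). The median of this list was also -0.62 without LPS, -0.68 at 1 h and -0.56 at 5 h. Outside the lists, Cd300e, a myeloid receptor, was 320 and 19.1 (-4.06), Rgs1, which limits chemokine receptor signals, 330 and 20.3 (-4.02), Tnc, the matrix protein tenascin C, 110 and 7.47 (-3.87, and -3.85 by its other probe), and Ifi209, an interferon-inducible gene of the same family as Ifi204, 280 and 22.3 (-3.65). Gm6377 was 64.0 and 5.69 (-3.49).

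On the higher side, each of the 32 lists had at most 3 members at least 2-fold up. Srxn1, sulfiredoxin, which repairs oxidised peroxiredoxins, was read at 541, 953, 596 and 441 without melatonin and 890, 3010, 4460 and 1710 with it, 7.48-fold higher at 3 h (2.90). Of 19 NRF2 targets 2 were 2-fold higher (10.5%, beside 7.73% of all genes), Srxn1 and Osgin1 (9.61 and 27.2, 1.5), and 0 lower. Their median was 0.11. Gclc (211 and 421, 1.00) and Gclm (436 and 687, 0.66), the subunits that make glutathione, were above, and Hmox1, haem oxygenase 1, stood at 1010 and 1070 (0.09). Nqo1 was not above background. Of 18 ATF4 stress targets 3 were 2-fold higher (16.7%) and 0 lower (median 0.19). But Slc7a3 among them, an amino acid transporter seen on the melatonin array only, has a bound of at least 1.65-fold. Ddit4, an inhibitor of mTOR, was 585 and 1990 (1.77), Trib3 547 and 1030 (0.91) and Chac1 945 and 1630 (0.79).

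Of 18 p53 targets 2 were at least 2-fold higher (11.1%, beside 7.73% of all genes) and 0 lower (median 0.23). Phlda3, which restrains Akt, was 629, 482, 116 and 184 without melatonin and 1950, 1740, 699 and 779 with it, so it was higher in every pair (1.63, 1.85, 2.59 and 2.08). Trp53inp1, a stress protein of the p53 pathway, was 2.47 and 32.3 (3.71) by the probe used, the former near background, and its probe that was above background on both arrays gave 0.42. Cdkn1a, the cell cycle inhibitor p21, was 3060 and 3660 (0.26) and Mdm2 2320 and 2470 (0.09). Without LPS the same list had 7 of 18 at least 2-fold higher and a median of 0.89.

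Many higher genes were ones that LPS takes down. Tob1, an antiproliferative protein, was 74.3, 55.7, 6.94 and 14.1 without melatonin and 177, 185, 54.6 and 34.9 with it (2.98 at 3 h). Rhod, a small GTPase (7.59 and 55.4, 2.87), Suox, sulfite oxidase (13.4 and 94.4, 2.82), Crip2 (18.1 and 103, 2.51) and Ankrd9 (6.60 and 37.5, 2.51) were also of the lowered class, as were Hist2h2bb (6.67 and 43.7, 2.71) and Mblac2 (7.37 and 45.9, 2.64). Abcg1, which exports cholesterol, was 734, 426, 41.3 and 51.7 without melatonin and 1330, 1020, 144 and 119 with it (1.81 at 3 h). Ulk1, which starts autophagy, was 157 and 607 (1.95), and Foxo1 28.6 and 88.6 (1.63, and 2.32 by its other probe). Outside that class, Foxo3 was 31.2 and 75 (1.27, and 0.74 by its other probe). The transcript 5031425E22Rik was 12.2 and 70.7 (2.53) by one probe and 0.30 by the other.

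G2/M genes, which carry cells through mitosis, were lower by small steps, with all 23 below 0 and a median of -0.74. At least 2-fold lower were 3 of 23 (13%, beside 6.64% of all genes). Cdk1 was 234 and 113 (-1.06), Kif11 43.8 and 20.5 (-1.09) and the proliferation marker Mki67 2190 and 1190 (-0.88). The median was -0.30 without LPS and -0.28 at 1 h, and -1.05 at 5 h with 14 members 2-fold lower. G1/S genes had 0 of 23 lower and 1 higher, E2f2 (49.5 and 108, 1.12), with a median of -0.24. Of 21 cholesterol synthesis genes 1 was lower, Hmgcs1 (2070 and 984, -1.07), and the median was -0.43. Control lists stood a little below the median of all genes (-0.06). Medians were -0.21 for 18 ribosomal protein genes, -0.16 for 19 respiratory chain genes and -0.30 for 12 reference genes, with 0 members past 2-fold, and these medians reached 0.02, 0.08 and -0.05 under other processing. All 18 ribosomal, all 19 respiratory chain and 11 of the 12 reference genes lay below 0, so a list wholly below 0 is not particular by that alone.

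Genes of melatonin itself gave little signal. The receptor genes Mtnr1a and Mtnr1b and the synthesis gene Asmt were on the array and not well above background at 3 h in either arm, and 5 of 15 genes of receptors, synthesis and binding were measured. Nqo2, a quinone reductase that binds melatonin, was 515 and 540 (0.07), and Aanat, the enzyme before Asmt, 54.9 and 37.8 (-0.54). Rora, a nuclear receptor, was at least 1.49-fold higher (1.90, not well above background, and 6.71). Of 16 clock genes (median 0.05), Tef at 146 and 373 (1.36) was 2-fold higher on both arrays and Cry1 at 30.8 and 15.2 lower (-1.02), and Rora passed 2-fold by its reading (1.82) but not by its bound.

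The pairs without LPS, at 1 h and at 5 h share no array with the 3 h pair, so they give the same genes a second reading. Of the 1199 genes higher at 3 h, 186 (15.5%) were at least 2-fold higher without LPS, 310 (25.9%) at 1 h and 587 (49.0%) at 5 h, beside 2.12%, 3.09% and 6.11% of all genes. Of the 1030 lower genes, 166 (16.1%), 261 (25.3%) and 401 (38.9%) were lower, beside 2.01%, 3.1% and 4.31%. A limma model over the 8 arrays with LPS time, melatonin and a term for melatonin at 3 h tested the mean difference of the other 3 pairs, with 2 residual degrees of freedom. It called 1156 genes higher (7.46% of 15505) and 1578 lower (10.2%) at a Benjamini-Hochberg adjusted p under 0.05. Among the 1199 higher genes 379 (31.6%) were called higher and 3 lower, and among the 1030 lower genes 221 (21.5%) were called lower and 5 higher. Limma called 0 genes without the pair of 0 h, 0 without that of 1 h, and 1625 higher and 2295 lower without that of 5 h. It also called 0 genes without an intensity trend and 0 without a filter on background, so all calls over the other pairs, the named ones included, are lost there, and quantile normalization gave 674 lower.

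Genes that passed included Ccl2 (mean of the other pairs -2.11, SE 0.11, limma adjusted p = 0.0243), Cxcl2 (-1.47, SE 0.19, 0.0268), Tnc (-2.27, SE 0.41, 0.0359) and Nos2 (-0.87, SE 0.15, 0.0337). The means of Cxcl2 and Tnc include readings near background without LPS, and that of Tnc also at 1 h (3.03 and 1.06). On the higher side were Phlda3 (1.86, SE 0.11, 0.0243), Abcg1 (1.11, SE 0.11, 0.0243), Tob1 (1.43, SE 0.14, 0.0243) and Srxn1 (1.45, SE 0.26, 0.0353). Among genes 2-fold different at 3 h, the smallest p-values were those of A530032D15Rik, Abhd4, Clec12a, Ulk1, Ccl2, Bcl6b, Hid1 and Slc19a2, each with limma adjusted p = 0.0243. Hid1 was read at 0.801, 1.64 and 1.98 without melatonin at 0, 1 and 5 h, near background, so the size of its mean is not measured. Clec12a, an inhibitory lectin receptor, was -1.60, -1.65, -2.14 and -1.64 at 0, 1, 3 and 5 h, and Abhd4, a lipase, 1.30, 1.24, 1.35 and 1.25. Il6 (limma adjusted p = 0.141), Edn1 (0.133), Ifnb1 (0.135), Il1b (0.0645) and Tnf (0.0518) did not pass. Without LPS, Il6, Edn1 and Ifnb1 were near background in both arms, and that pair is part of the mean. For these genes the test therefore cannot decide about 1 h and 5 h, and their 5 h differences were -3.21, -4.13 and -2.64. Irf1 was called higher over the other pairs (0.92, SE 0.17, adjusted p = 0.0361) and was -1.74 at 3 h.

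Whether a difference was particular to 3 h was tested by the model's term for melatonin at 3 h, the 3 h difference minus the mean of the other pairs. Limma called 0 genes, with 1194 at an unadjusted p under 0.05 and a smallest adjusted p of 0.0843. Other processing called up to 475 genes. For Irf1 the term was -2.66 (SE 0.34, limma adjusted p = 0.111), for Rsad2 -2.42 (SE 0.48, 0.228), for Ifit1 -2.66 (SE 0.65, 0.349), for Gbp3 -2.44 (SE 0.97, 0.682) and for Il6 -2.15 (SE 1.69, 0.906). The mean behind the Il6 term includes readings near background without LPS. With 1 array a condition, no gene named here is shown by this fit to differ at 3 h from its difference at the other times.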

How the data were processed

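Transcript levels were measured in 8 samples of RAW264.7 cells on 1-colour (Cy3) oligonucleotide arrays. Intensity values come, per the file headers, from Agilent Feature Extraction 12.0.3.1 (design 074809), as processed, background-subtracted and detrended signals; the mean spot and local background intensity columns served 1 alternative. The scanner flags of 0 or 1 for spots above background, saturated or outlying (other values) are as deposited. The deposited log2 table holds the same sorted values on all 8 arrays, and the sources used here do not name its tool. Here, log2 processed signals were scaled to the 75th percentile of each array, controls (3671 of 62976 spots) and outlier spots were left out, spots of a probe were averaged, and the probe brightest over the 2 arrays of 3 h stood for its gene. Symbols were updated through RefSeq accessions (32994 probes matched, 1535 renamed). The fits used limma 3.58.1 in R 4.3.3, with 2-sided moderated tests and an intensity trend, checked on simulated data. No label gives separate cultures, and the p-values rest on the spread of the melatonin difference between the 0, 1 and 5 h pairs. In that spread, array-to-array noise, which may be technical, and change with LPS time cannot be told apart. The number of arrays limits the precision. Named genes were the 12 highest and 12 lowest on both arrays, the 5 largest bounds each way, the 2 highest and 2 lowest of each of 32 gene lists, a panel of 53 genes and the 8 smallest p over the other pairs among genes 2-fold different at 3 h. Other list members that are named were chosen after their values were seen. The comparison, lists and panel were chosen with earlier results of these data known. Promoters were searched for ISRE, NF-kB, AP-1, CRE, NRF2, GAS, ATF4, E-box, CCAAT and E2F letters. Alternatives were quantile and normexp scaling, the deposited table, other filters, a common floor, the median over probes, no trend, leaving out a pair, and other arrays for the 3 h melatonin sample.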

Additional observations from a re-analysis of the deposited data

Results flagged for a closer look

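5 named genes that read at least 2-fold apart at 3 h read at least 2-fold apart the other way in another pair of arrays, 1 array a side. Only for Irf1 were both readings of that other pair clear of background, so a reversal of 2-fold is not measured for the other 4. Whether the pairs differ was not tested for these times alone; the limma term for 3 h against the mean of the other pairs called none of the 5. Ccl17 was at -4.12 at 3 h and 1.06 without LPS, both arrays there near background (0.839 and 1.75; adjusted p of the term 0.856). Fabp4, a fatty acid carrier, was at 1.5 at 3 h and -1.53 without LPS, where it was read at 7.4 and 2.55, the latter near background (adjusted p = 0.884 by limma). Klk12, a kallikrein protease, was at 2.64 at 3 h and -1.07 at 1 h, where it was read at 3.25 and 1.55, near background (adjusted p = 0.209 by limma). Irf1 was at -1.74 at 3 h and 1.33 at 1 h (adjusted p = 0.111 by limma). Ch25h was at 1.84 at 3 h and -2.01 at 5 h, where it was read at 5.41 and 1.34, near background (adjusted p = 0.848 by limma).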

How the results depend on the processing

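No paired analysis was possible because the labels give no replicate numbers; the limma model pairs the arms by LPS time alone. At 3 h the 2-fold counts (1199 higher, 1030 lower) were 508 and 604 with normexp, 682 and 551 among genes above background on both arrays, 2129 and 1718 with no filter, and 1600 and 1618 with the treatment field's times. The class medians moved to -0.12 (early raised) and -0.38 (late raised) with no filter, and to -1.04, -1.28 and 1.06 (lowered) with the treatment field's times. With the array titled melatonin at 5 h in place of 3 h, chosen after seeing the data, the late raised median was -0.37 and the lowered one 0.31. Over the other pairs, limma called 0 genes higher and 0 lower without an intensity trend and without a filter, 191 and 381 at the common floor, and 674 and 714 lower with quantile normalization and the deposited table. Leaving out a pair gave from 0 to 1625 higher and from 0 to 2295 lower. The term for 3 h called 89 higher and 75 lower with quantile normalization, 40 and 62 with normexp, 50 and 61 with the deposited table, 134 and 123 with no trend, 85 and 89 without a filter, and 254 and 221 at the common floor. With the treatment field's times Zfp438 stood at -0.16, Klk12 at -1.70, Klf5 at -0.44, Cpn1 at -1.15 and Egr1 at 2.54. With the array of 5 h Zfp438 stood at -0.21, Klk12 at -0.62 and Cpn1 at -0.73. The cause of these moves was not tested. Every named call over the other pairs was lost without the pair of 0 h or of 1 h, and those of Srxn1, Hist2h2bb and Irf1 also without that of 5 h (highest limma adjusted p 0.192 to 0.216). Medians of the interferon, cytokine and chemokine lists stayed at or below -1.28 in each setting on the titled arrays. A gene near background has only a bound on the dimmer array.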
